A study of Mus musculus with 4 samples.

Results

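Open chromatin was examined around 7 Notch pathway genes in Lgr5-positive intestinal stem cells of the mouse. They comprised the ligand genes Dll1, Dll4 and Jag1, the receptor genes Notch1 and Notch2, and the target genes Hes1 and Hey1. Members were chosen by gene name. For each gene, every merged ATAC-seq region inside the gene or within 100 kb of it on either side was taken, which gave 208 of the 119965 regions of the data set, at 7 of 21883 protein-coding genes. ATAC-seq marks accessible DNA by inserting sequencing adapters with the Tn5 transposase. The peak lists came from 4 libraries of untreated primary cells of Lgr5-EGFP-IRES-creERT2 mice aged 6 to 12 weeks, in which EGFP is driven from the Lgr5 locus. Small-intestinal stem cells (SISC, 2 libraries) were sorted as EGFP positive and CD24 negative from 2 stretches of the small intestine, 1 at its pyloric and 1 at its cecal end. Large-intestinal stem cells (LISC, 2 libraries) were sorted as EGFP positive, with no CD24 gate named, from the cecum to the rectum. No label states that the paired libraries are from different mice, and what separates them may be partly technical.

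Notch is a receptor system between touching cells. A Delta or Jagged ligand on 1 cell leads to cleavage of the Notch receptor on its neighbour, and the released intracellular part joins the DNA-binding protein Rbpj to switch on Hes and Hey genes. In the intestinal crypt, secretory cells including Paneth cells present Dll1 and Dll4, Notch1 and Notch2 act in stem and progenitor cells, and Hes1 represses Atoh1, the factor that directs cells to the secretory lineage. Jag1 and Hey1 are also widely known from blood vessels, where Dll4 and Notch1 act too.

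Between 83443 and 93220 peaks were listed per library. Read depth was not given in the sources used here, so a region absent from a list was not called in that library, which does not show that it was closed. Peaks on the Y chromosome were listed in replicate 1 of each group (6 in SISC, 8 in LISC) and in no replicate 2 library, so the replicate numbers differ in more than sampling. Gene ends (within 1 kb) of all 8 epithelial markers carried a region in every library, and those of 4 to 6 of 6 crypt stem cell markers did. Among markers of other cells, 8 of 9 goblet and deep crypt secretory genes were called in each library and 2 or 3 of 5 Paneth genes. Enteroendocrine genes stood at 3 of 4 in each library, tuft genes at 2 or 3 of 3 and immune genes at 1 to 3 of 6. Over all protein-coding genes, 61.9% had an end region called in all 4 libraries. The endothelial list stood at 3 of 8 in each library: Kdr, Erg and Sox17 were called in all 4 libraries, and Pecam1, Cdh5, Tek, Tie1 and Emcn in none. The stromal list stood at 1 to 5 of 7. With bulk lists, fewer cells of a type and less open chromatin per cell cannot be told apart.

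The starts of the receptor genes are shown because a region over each was called in all 4 libraries, with most peak summits inside the printed bases. RefSeq promoter sequences (GRCm38.p6, the coordinates of mm10) were matched for 5 of the 7 genes, and Hes1 and Hey1 were not matched. The 250 bases before the start are printed 5′ to 3′ on the gene's strand. Capitals run from the outermost to the innermost summit that lay in these bases, 78 to 11 bases before the Notch2 start (4 libraries) and 20 to 14 bases before the Notch1 start (3 libraries). These examples were chosen after the values were seen.
Notch2, chr3:98013288-98013537, plus strand: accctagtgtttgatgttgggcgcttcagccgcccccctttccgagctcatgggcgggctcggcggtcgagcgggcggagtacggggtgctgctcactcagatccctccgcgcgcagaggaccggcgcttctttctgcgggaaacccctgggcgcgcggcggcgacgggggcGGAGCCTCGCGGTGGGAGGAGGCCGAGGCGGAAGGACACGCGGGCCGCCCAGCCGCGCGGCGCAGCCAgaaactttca
Notch1, chr2:26503823-26504072, minus strand: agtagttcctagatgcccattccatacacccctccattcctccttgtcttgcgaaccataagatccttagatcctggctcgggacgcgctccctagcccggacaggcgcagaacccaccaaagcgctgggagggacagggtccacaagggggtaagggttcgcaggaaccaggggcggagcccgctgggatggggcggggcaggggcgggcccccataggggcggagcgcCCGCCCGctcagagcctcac
The Notch2 bases were 72% G or C with 34 CpG dinucleotides, and the Notch1 bases 66% with 16, beside medians of 52.4% and 6 over 32817 promoter windows of the table. Neither sequence held the Rbpj core motif TGGGAA on either strand, nor did those of Dll1, Dll4 and Jag1. That motif was found in 21.6% of all windows, and the longer form GTGGGAA, which contains it, in 5.42%.

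Every one of the 7 genes had a region called in all 4 libraries within 1 kb of an annotated end, against 61.9% of protein-coding genes. At the Notch2 start the region (chr3:98013045-98014364) had a −log10 q of 259 and 266 in SISC replicates 1 and 2 and of 230 and 129 in LISC replicates 1 and 2. These are the authors' peak values, which depend on the depth of each library and are given here to describe peaks within their own list. The Notch1 start lay in a region of 2949 bp (chr2:26501572-26504520), whose strongest peaks had 264 and 184 in SISC and 294 and 121 in LISC. The peaks over the Notch1 start itself had 187 and 184 in SISC and 223 and 89.5 in LISC. Of these, the SISC replicate 2 peak had its summit 2053 bp inside the gene. At Jag1 the start region (chr2:137116016-137117717) had 283 and 169 in SISC and 251 and 157 in LISC. Within their lists the strongest peaks of these regions were at percentile 87.3 of −log10 q or above. The LISC replicate 2 value was the lowest of the 4 at each of these starts, and the median of its whole list was also the lowest, at 26.2 beside 32.8 to 36.1. In −log10 q the 2 groups overlapped at Notch1 and Jag1 but not at Notch2.

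Dll4 and Dll1 had weaker start regions. The Dll4 region (chr2:119324692-119325971) stood at 113, 85.3, 116 and 51.8 in the order SISC replicates 1 and 2, LISC replicates 1 and 2, and the Dll1 region (chr17:15374596-15377215) at 84.7, 76.0, 71.1 and 44.3. The Dll1 peak summits lay 929 to 1051 bp inside the gene. RefSeq lists a second Dll1 start 1109 bp after the first, and the summits were 180, 59, 58 and 59 bp before it in the same order of libraries. Hes1 carried 3 end regions, all called in 4 libraries; the region over its lower-coordinate end (chr16:30065035-30065479) had 252, 155, 229 and 108. At Hey1 the region over the upper end (chr3:8666628-8668240) had 173, 105, 204 and 135.

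Across the 7 genes, 126 of the 208 regions (60.6%) were called in all 4 libraries, beside 48.2% of all regions and 49.3% of those within 100 kb of a protein-coding gene. SISC-only regions, listed by each SISC library but by no LISC library, numbered 17 (8.17%, beside 7.96% and 7.86%). The reverse, LISC-only, numbered 10 (4.81%, beside 10.2% and 9.4%). The remaining 55 were called in other combinations, 32 of them in a single library, of which SISC replicate 2 had 15. The genes differed in direction. Notch1 and Notch2 together held 13 of the 17 SISC-only regions, and Dll4 held the most LISC-only regions, 3 of 10. Each kind was found at 5 of the 7 genes, where 61.4% of protein-coding genes had a SISC-only region in the window and 59.1% a LISC-only region. As 2 libraries against 2 allow no two-sided exact permutation p below 0.333, no difference between the groups is tested here. The counts rest on single libraries: without SISC replicate 1 there were 33 SISC-only regions and without SISC replicate 2 there were 26, while without LISC replicate 2 there were 18 LISC-only regions, since a lone library then defines its group.

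**Figure D1:**
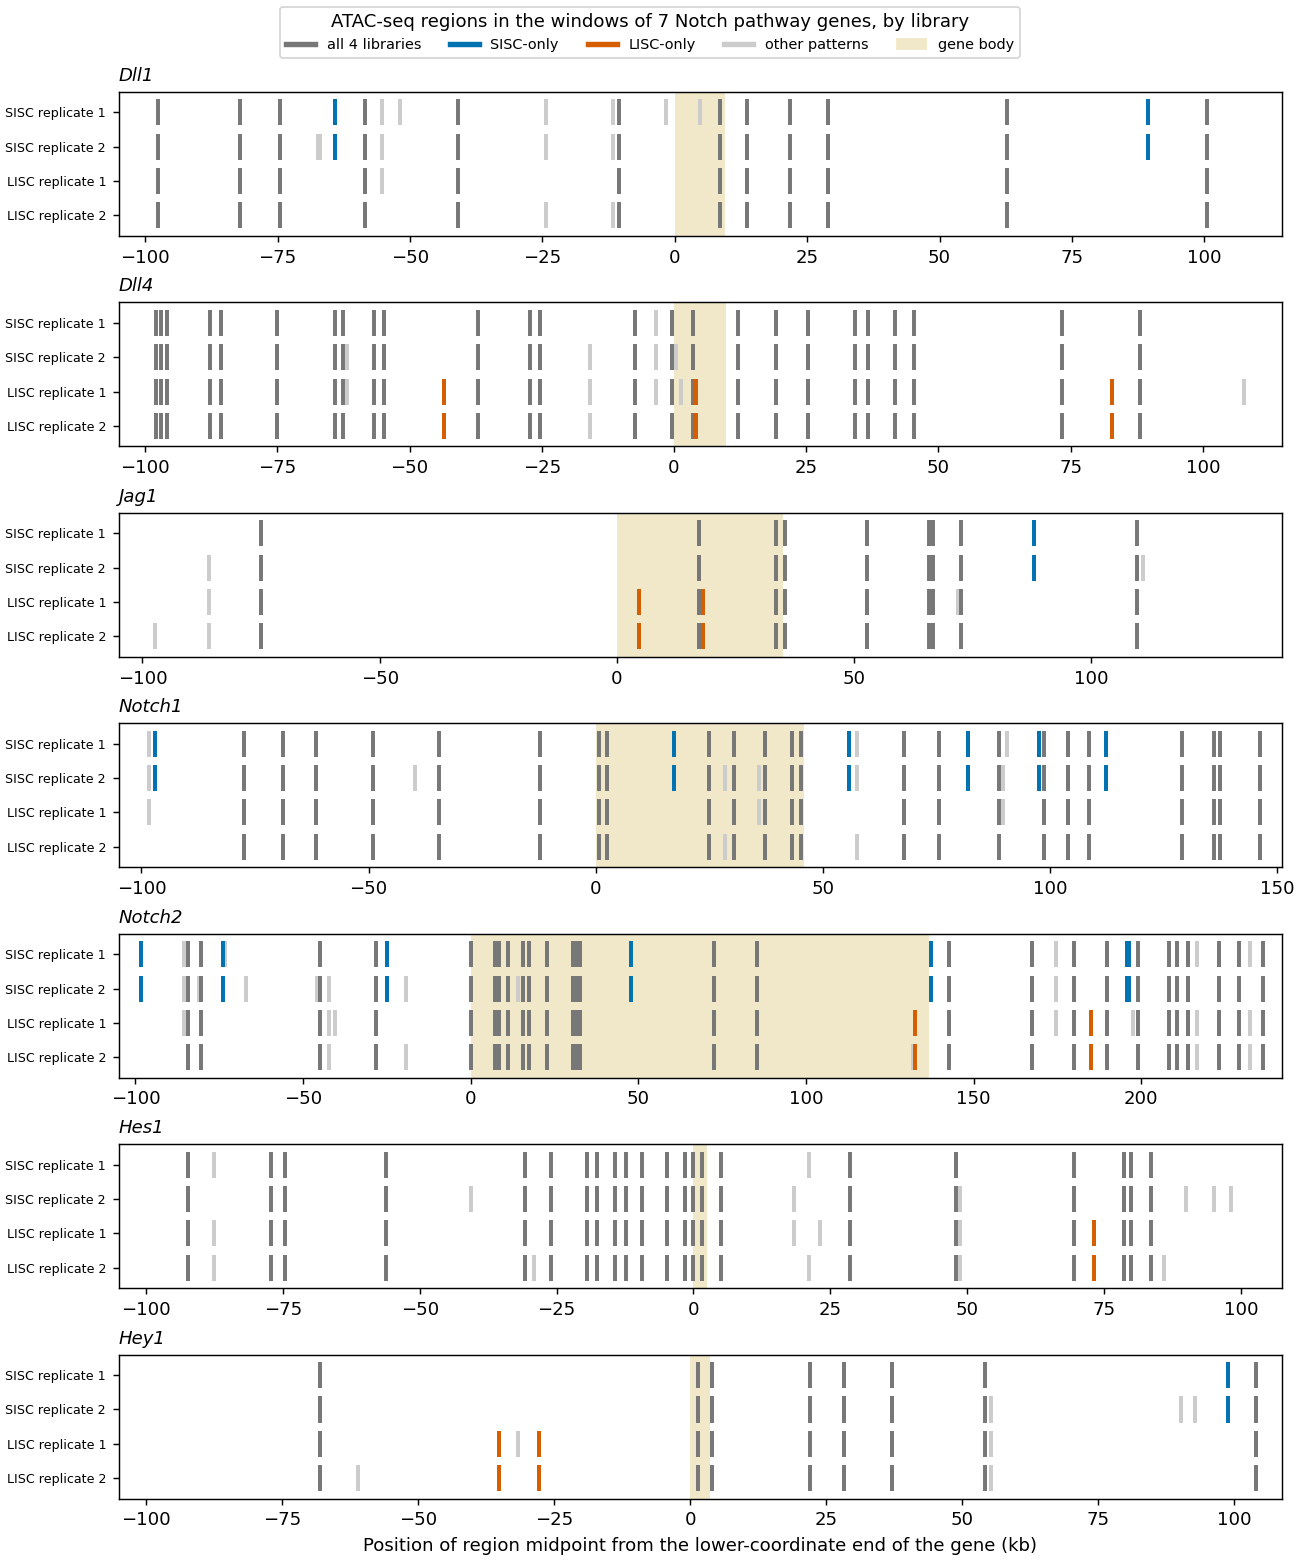
Regions at the 7 genes by library: the x axis gives the region midpoint in kb from the lower-coordinate end of the gene, each row of ticks is 1 library, and colour marks the combination of libraries (ticks have a fixed width). Dark grey columns of 4 ticks, the 126 regions of all libraries, are the most frequent kind in every window, and blue SISC-only ticks gather at Notch1 and Notch2.

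The number of regions called per library separated the groups at 4 genes. At Dll1 it was 20 and 19 in SISC and 13 and 14 in LISC. At Notch1 it was 32 and 35 against 26 and 25, and at Notch2 39 and 42 against 36 and 34. These 3 genes had more regions in both SISC libraries than in both LISC libraries, as did 21.2% of protein-coding genes. Jag1 was the reverse, with 10 and 12 regions in SISC and 13 in each LISC library, as at 14.5% of genes. The groups overlapped or touched at Dll4 (26 and 29 against 33 and 29), Hes1 (24 and 28 against 27 and 28) and Hey1 (9 and 12 against 12 and 12).

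**Figure D2:**
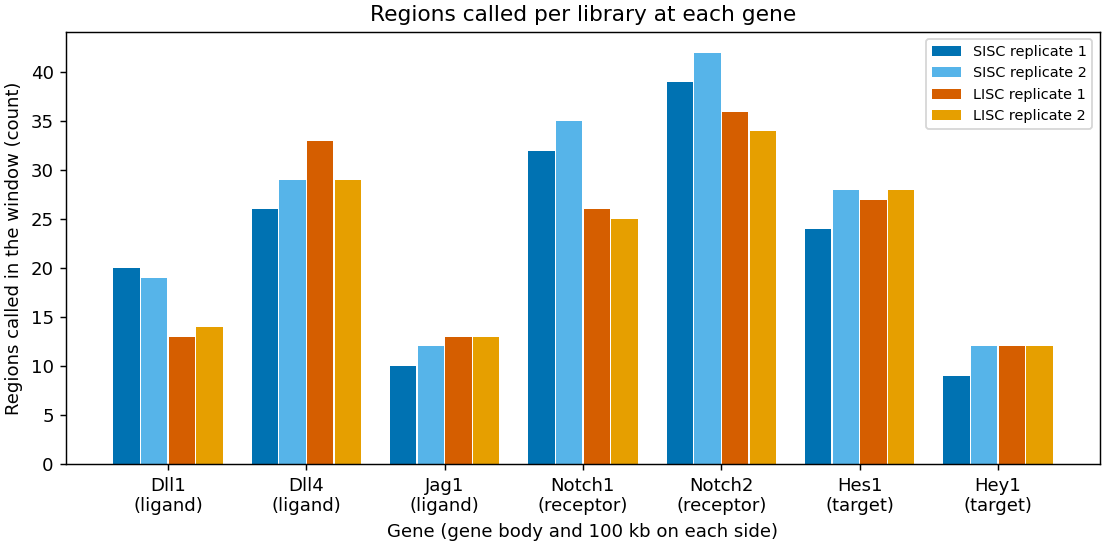
Regions called in the window of each gene (bars, counts from 0), 1 bar per library. Both SISC bars exceed both LISC bars at Dll1, Notch1 and Notch2, and both LISC bars exceed both SISC bars at Jag1.

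Dll1, a Delta ligand of secretory cells, had its SISC excess on its downstream side. The gene lies on the minus strand of chromosome 17 (15367354 to 15376932). Of 14 downstream regions, 12 were called in each SISC library and 7 and 8 in the LISC libraries, whereas of 6 upstream regions 6 and 6 were called in SISC and 5 and 5 in LISC. The region 23.6 kb downstream (chr17:15342441-15343754) had a −log10 q of 82.8 and 77.1 in SISC, was not listed in LISC replicate 1 and stood at 12.0 in LISC replicate 2. Another, 55.2 kb downstream (chr17:15311857-15312181), had 26.8 and 41.0 in SISC and was called in LISC replicate 1 but not in LISC replicate 2. Neither is SISC-only, as 1 LISC library called each; both were picked out after their values were seen. The 2 SISC-only regions of the window were weak, at 9.26 and 10.8 (63.8 kb downstream) and 12.6 and 7.80 (79.7 kb upstream, nearest to Psmb1), and none was LISC-only. Paneth cells, a source of Delta ligands, carry CD24, and the SISC sort took CD24-negative cells. Paneth marker ends were called at 3 of 5 genes in both SISC libraries and in LISC replicate 2 and at 2 of 5 in LISC replicate 1; their part in the Dll1 values was not tested. SISC-only minus LISC-only regions at Dll1 came to 2, to 0 in 50 kb windows, to 1 by nearest gene, to 5 without SISC replicate 1 and to 7 without SISC replicate 2.

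Shared regions were also compared by rank, a step added after the data were seen. Within each library, −log10 q was ranked over the same 57829 regions that all 4 lists hold. A region was taken as ranked higher in 1 group when both of its libraries exceeded both of the other group. Of the 126 shared regions of the 7 genes, 39 ranked higher in SISC (31.0%, beside 30.4% of all shared regions) and 31 higher in LISC (24.6%, beside 25.4%), so the set as a whole was near the background. At Dll1, 7 of 12 ranked higher in SISC and none in LISC. The region 57.9 kb downstream (chr17:15308337-15309421) was at percentiles 50.1 and 32.6 in SISC and 0.98 and 5.81 in LISC. The regions 40.5 and 74.2 kb downstream differed in the same direction, by 36.9 and 29.5 percentile points between group means. Close to the gene, the region 9.55 kb downstream (chr17:15356006-15357805) was at 86.1 and 86.0 in SISC and 83.7 and 80.9 in LISC, a difference of 3.74 points.

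Dll4, the other Delta ligand of the crypt, lies on the plus strand of chromosome 2 (119325784 to 119335666) and had 34 regions, 25 of them in all 4 libraries, 3 LISC-only and none SISC-only. That LISC-only share was below the 10.2% of all regions, and 20.0% of protein-coding genes had at least 3 LISC-only regions. SISC-only minus LISC-only regions came to -3, to -1 by nearest gene or among the strongest peaks, and to -5 without LISC replicate 2. The strongest group-only region of the whole set was here (chr2:119408200-119409182, 983 bp), with a −log10 q of 128 and 67.4 in the LISC libraries. It lies 72.5 kb downstream of Dll4, inside the gene body of Ino80, a chromatin remodeller gene, and so is nearer to an end of another gene. A second LISC-only region lay within the Dll4 gene body (chr2:119329819-119330194), at 33.9 and 18.9. It sits 131 bp from a shared region (chr2:119328983-119329687) that had 143 and 111 in SISC and 208 and 136 in LISC and also ranked higher in both LISC libraries. The third, 43.3 kb upstream, was near the floor of the lists at 3.54 and 5.94. Shared regions at Dll4 ranked higher in SISC 6 times and in LISC 7 times of 25.

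Jag1, the Jagged ligand gene, on the minus strand of chromosome 2 (137081451 to 137116520), had 2 LISC-only regions among 16, a number that 35.7% of protein-coding genes reached, and both lay inside the gene. One (chr2:137085905-137086476) had a −log10 q of 12.9 and 11.4, the other (chr2:137099356-137099647) 27.3 and 17.0. The latter is separated by 81 bp from a shared region (chr2:137098191-137099274) at percentiles 17.4 and 29.9 in SISC and 57.8 and 60.4 in LISC. A shared region 37.0 kb upstream (chr2:137153525-137154406) differed the same way, with 15.4 and 12.4 in SISC against 37.5 and 65.4 in LISC. The gene had 1 SISC-only region, 52.6 kb upstream, at 9.26 and 14.0. Over its 9 shared regions, 4 ranked higher in LISC and 2 in SISC.

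The receptor windows held 86 regions, of which 13 (15.1%, beside 7.96% of all regions) were SISC-only and 2 (2.33%, beside 10.2%) LISC-only. By nearest gene, 3 SISC-only regions belonged to Notch1 and 2 to Notch2. The other 2 receptor genes, Notch3 and Notch4, had 1 region of each kind among 20 by nearest gene. Notch1 lies on the minus strand of chromosome 2 (26457902 to 26503822) and had 6 SISC-only regions and no LISC-only region among 36; 2.6% of protein-coding genes had at least as many SISC-only regions in their window. Of the 6, 4 lay upstream, at 9.38, 35.8, 51.3 and 66.2 kb, 1 inside the gene and 1 at 96.8 kb downstream. The farther upstream pair was nearest to Egfl7, a gene of the vascular endothelium; endothelial marker ends were called at 3 of 8 genes in each library, and their part was not tested. All 6 were weak peaks, with a −log10 q of 3.67 to 24.1 and no list percentile above 41.8. The upstream regions at 51.3 and 66.2 kb were the highest, with 16.6 and 17.5 in the SISC libraries and 15.8 and 24.1. The one at 51.3 kb sits 199 bp from a shared region (chr2:26555821-26557345) that ranked higher in both LISC libraries. That shared region was at percentiles 15.1 and 13.0 in SISC and 26.6 and 35.3 in LISC. When each list was limited to its 41721 strongest peaks, SISC-only and LISC-only regions at Notch1 were equal in number (net 0). The net was 3 in 50 kb windows or by nearest gene, and it was 7 with any 1 library left out.

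The SISC-only region farthest downstream of Notch1 (chr2:26360814-26361074, −log10 q 4.81 and 9.50) covered the start of Card9, a signalling adaptor gene of innate immunity. Its sequence is shown because it was the sole group-only region of the 7 windows that reached into a promoter of the RefSeq table. The 165 bases of the region that precede the Card9 start read, 5′ to 3′ on the minus strand and with no capitals because TGGGAA was not found on either strand:
Card9, chr2:26360910-26361074: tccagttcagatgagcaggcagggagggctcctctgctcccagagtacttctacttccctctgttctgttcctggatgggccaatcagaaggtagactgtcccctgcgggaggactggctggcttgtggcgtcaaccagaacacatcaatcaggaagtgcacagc
They were 56.4% G or C.

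Upstream of Notch1 the shared regions also stood higher in SISC: 6 of 10 ranked higher in both SISC libraries and 2 in both LISC libraries. Of the 6, those at 42.5, 57.8, 82.5 and 90.8 kb were nearest to Egfl7 or Agpat2 rather than Notch1. The region at 21.6 kb (chr2:26525447-26526103) was at percentiles 24.0 and 52.2 in SISC and 0.699 and 11.7 in LISC, and that at 29.3 kb (chr2:26533145-26533906) at 48.0 and 32.0 against 1.33 and 31.1. In the gene body and downstream, none of 13 shared regions ranked higher in SISC and 4 ranked higher in LISC. Over the whole window 6 ranked higher in SISC and 6 in LISC. The median difference over all 23 shared Notch1 regions was -0.51 percentile points, SISC minus LISC, against 0.72 over all shared regions. The strongest peaks of the window belonged to a shared region nearest to Sec16a (chr2:26444758-26446402), with a −log10 q of 723 and 451 in SISC and 729 and 372 in LISC.

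**Figure D3:**
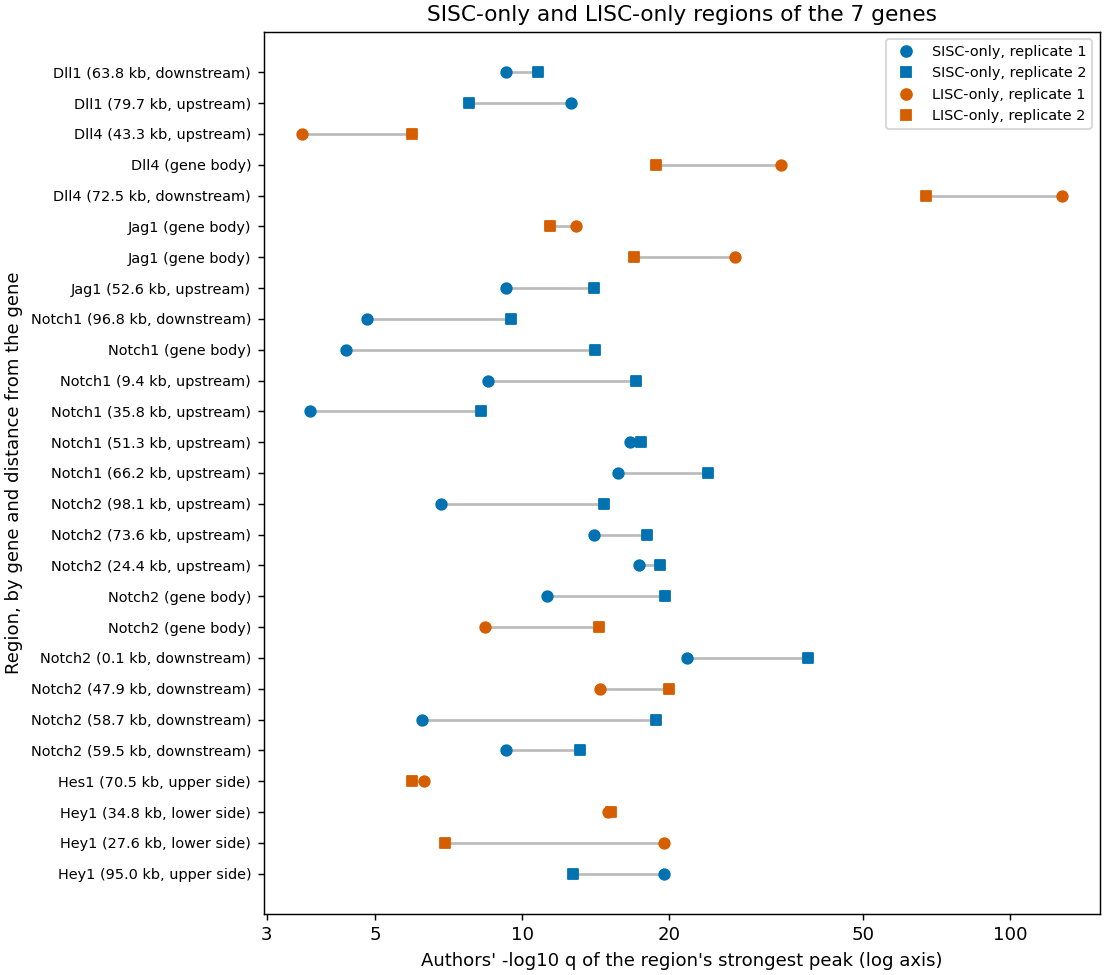
The 27 group-only regions of the 7 genes, labelled by gene and distance from it, against the authors' −log10 q in the 2 libraries that called them (log axis; circles replicate 1, squares replicate 2, lines join the pair). Most points lie below 25, and the LISC-only region 72.5 kb downstream of Dll4 stands apart at 128 and 67.4.

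Notch2, the longest of the 7 genes (137 kb, plus strand of chromosome 3, 98013538 to 98150367), had 50 regions in its window, 27 of them in all 4 libraries. SISC-only regions numbered 7 and LISC-only regions 2, and 1.38% of genes had at least 7 SISC-only regions, with the length of the gene adding to its window. The SISC-only region closest to the gene lay 121 bp past its downstream end (chr3:98150488-98151233), at a −log10 q of 21.8 and 38.6, the highest of the 7 and at list percentiles 36.5 and 54.1. One was inside the gene (chr3:98060894-98061730; 11.2 and 19.7), 3 lay 24.4 to 98.1 kb upstream and 2 lay 58.7 and 59.5 kb downstream. A LISC-only region (chr3:98145844-98146358; 8.39 and 14.4) was also inside the gene, near its downstream end. By nearest gene end, 2 of the 7 and 1 of the 2 belonged to Notch2 and the others to neighbours. The net of 5 SISC-only regions was 2 among the strongest peaks and 1 in 50 kb windows or by nearest gene, and it was 3 without LISC replicate 2.

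Neighbouring Notch2 regions leaned in opposite directions. In the gene body, 7.94 kb after the start, a shared region (chr3:98021479-98022384) had a −log10 q of 14.0 and 8.47 in SISC and 157 and 68.1 in LISC. Its percentiles among shared regions were 10.6 and 2.33 against 74.5 and 63.7, a difference of -62.6 points and the largest in either direction at the 7 genes. Further into the gene, 30.8 and 32.1 kb after the start, a pair of shared regions (chr3:98044386-98045380 and chr3:98045637-98046714) was higher in SISC. The first was at percentiles 48.0 and 57.6 against 8.10 and 25.7, the second at 28.6 and 42.2 against 3.67 and 3.81. Within the gene body 6 of 12 shared regions ranked higher in SISC and 1 in LISC.

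The downstream side of Notch2, which includes Reg4, held further large contrasts. Reg4, a marker of deep crypt secretory and enteroendocrine cells, lies downstream of Notch2, and a CD24 gate is named for the SISC sort and not for the LISC sort; what part it has in these values was not tested. A region 37.1 kb past Notch2 (chr3:98187436-98188483), picked out after its values were seen, had 256 and 254 in SISC, 12.2 in LISC replicate 1 and no call in LISC replicate 2. A shared region 52.5 kb past Notch2 (chr3:98202838-98204055) had 17.8 and 9.56 in SISC and 166 and 54.1 in LISC. Of 11 shared downstream regions, 2 ranked higher in SISC and 5 in LISC, the latter including a region over each end of Reg4. That at the end facing Notch2 (chr3:98221584-98222226) was at percentiles 6.61 and 1.97 in SISC and 23.4 and 27.9 in LISC. That at the far end (chr3:98236058-98237423) was at 22.1 and 14.5 in SISC and 49.5 and 59.4 in LISC. Inside Reg4, a shared region (chr3:98227085-98227595) ranked higher in SISC, at 46.9 and 58.9 against 38.7 and 36.8 in LISC. At another inside Reg4 (chr3:98223937-98224586) the ranks of the groups overlapped.

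**Figure D4:**
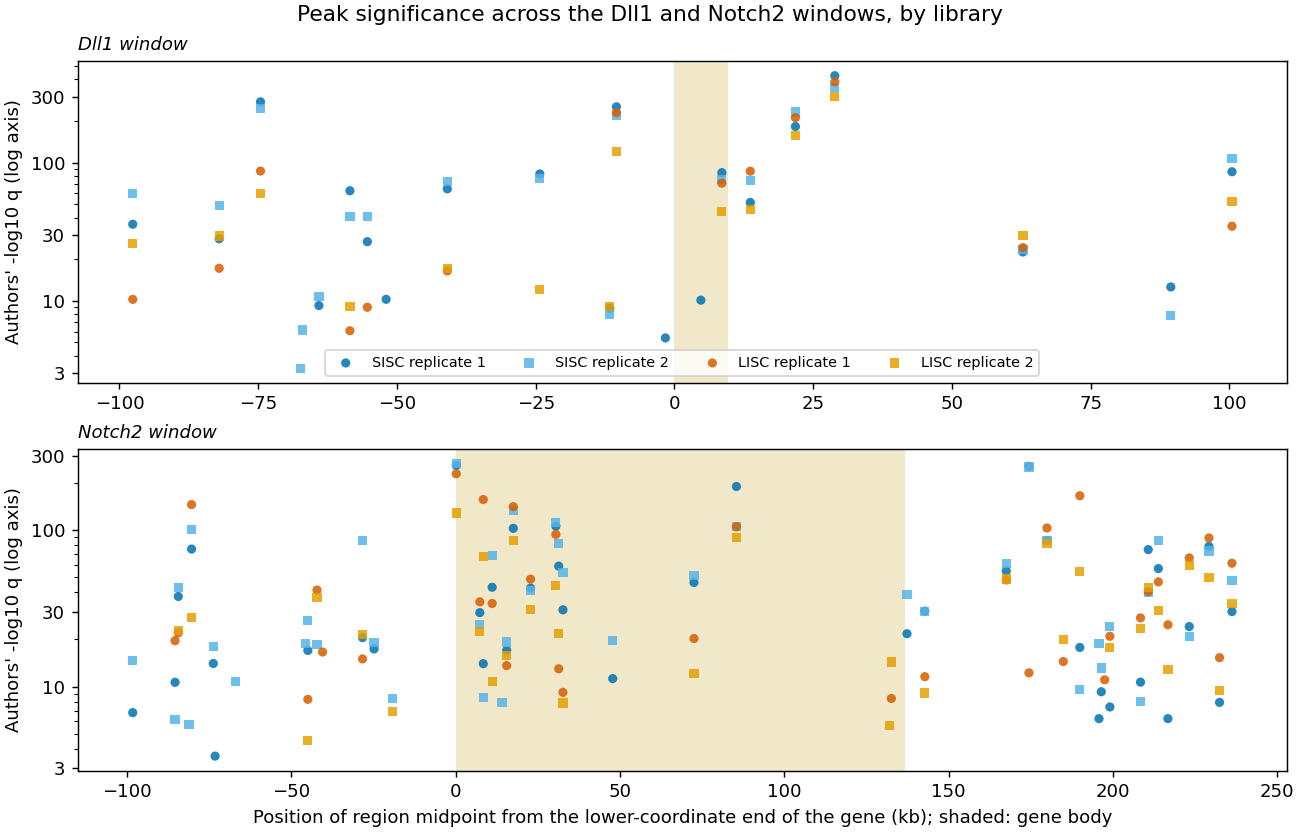
Authors' −log10 q of each region (log axis) against its midpoint in kb from the lower-coordinate end of the gene, for Dll1 and Notch2, with 1 colour and marker per library and the gene body shaded. At Dll1 the regions to the left, downstream of the gene, have blue SISC points above orange LISC points at several positions, and in the Notch2 window the order of the groups changes from region to region.

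The target gene Hes1, the main effector of Notch in the crypt, showed the fewest group-only regions. It spans 2.44 kb of chromosome 16 (30065357 to 30067796), and 22 of its 34 regions were called in all 4 libraries. It had 1 LISC-only region, 70.5 kb beyond the upper end and weak (−log10 q 6.30 and 5.95), and no SISC-only region. For 33 of the 34 regions Hes1 was itself the nearest gene. On the lower-coordinate side 13 of 16 regions were shared, and the one 55.2 kb away (chr16:30008119-30010189) had 251 and 244 in SISC and 283 and 169 in LISC. Closer in, the region 8.76 kb away (chr16:30055417-30056602) had 218 and 174 in SISC and 229 and 108 in LISC. Shared regions ranked higher in SISC at 6 and in LISC at 5 positions, and the median difference was 0.04 points. The largest was at 76.9 kb on the upper side (chr16:30144659-30145948), at percentiles 34.8 and 36.2 in SISC and 4.41 and 7.89 in LISC.

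Hey1, a Notch target best known from the cardiovascular system, spans 3.68 kb of chromosome 3 (8663359 to 8667038). Its window held 16 regions, 8 of them shared and 2 LISC-only, a number that 35.7% of protein-coding genes reached. The 2 LISC-only regions lay on the lower-coordinate side, at 34.8 kb (chr3:8628024-8628515; −log10 q 15.0 and 15.2) and 27.6 kb (chr3:8635281-8635806; 19.5 and 6.94), and Hey1 was the nearest gene to both. On that side 1 of 5 regions was called in each SISC library and 4 of 5 in each LISC library. Of the 9 regions on the upper side, 6 and 9 were called in SISC replicates 1 and 2 and 6 in each LISC library. The 1 SISC-only region (19.6 and 12.7) was 95.0 kb away on the upper side and nearest to Mrps28. Of the endothelial list, Kdr, Erg and Sox17 were called in every library and the other 5 genes in none; their part in the Hey1 values was not tested.

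**Figure D5:**
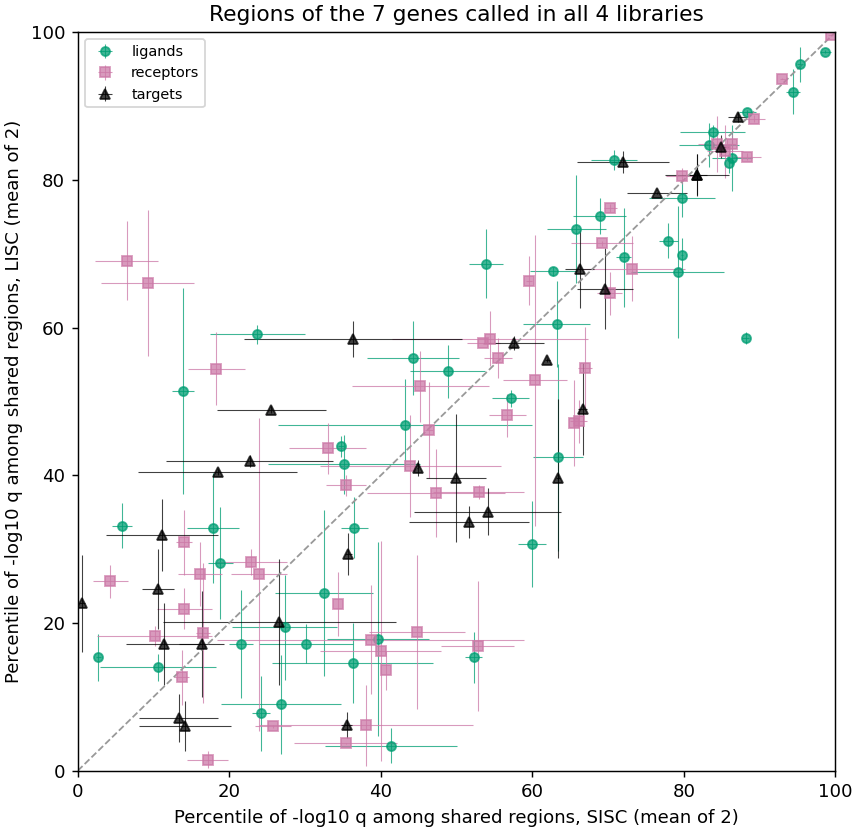
Percentile of −log10 q among the 57829 shared regions, SISC against LISC, for the 126 shared regions of the 7 genes; points are means of 2 libraries, bars reach each library's value, and the dashed line marks equal ranks. Points mostly keep close to the line at high percentiles and scatter widely below about 60. A Dll1 region at 88.2 in SISC and 58.6 in LISC lies away from the line. The 2 receptor points at the upper left are the Notch2 regions that ranked 62.6 and 56.8 points higher in LISC.

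The other 42 genes of the pathway were set beside the 7 by assigning each region to its nearest gene end. They had 321 regions, of which 21 (6.54%, beside 7.77% of all assigned regions) were SISC-only and 14 (4.36%, beside 8.98%) LISC-only. By number of group-only regions, 13 genes leaned to SISC, 7 to LISC, 1 had equal numbers and 21 had none. Of all protein-coding genes, 16.6% leaned to SISC, 17.5% to LISC and 61.9% had no group-only region. For the 42 genes these shares were 31.0%, 16.7% and 50%. The number of regions per gene was not matched in this comparison. The 7 members by the same assignment had 7 regions of each kind among 109. Gene ends were called in all 4 libraries at 39 of the 42, beside 61.9% of protein-coding genes. The exceptions were Notch3, a receptor gene called in both replicate 1 libraries, Dtx1, which encodes a Deltex regulator and was called in SISC alone, and Rbpj, called in SISC replicate 1 alone.

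By role, the 7 genes of the nuclear complex had 98 regions, with 7 SISC-only (7.14%) and 5 LISC-only (5.10%). Maml3, a co-activator of the Notch and Rbpj complex, had 4 SISC-only and 2 LISC-only regions, and Maml2, its relative, 2 and 0. The 3 genes of ubiquitin ligases that act on ligands had 4 SISC-only (12.1%) and 3 LISC-only (9.09%) regions among 33; of these, Mib1 had 3 SISC-only regions and no LISC-only region, and Neurl1a 0 and 3. Dtx1 had 2 and 0. Nrarp, a feedback inhibitor and Notch target, had 0 and 2, and Notch3 0 and 1. The 5 genes of glycosyltransferases that modify the receptors were Lfng, Mfng, Rfng, Pofut1 and Poglut1. They had 24 regions, 17 of them shared (70.8%, beside 50.0% of all assigned regions) and none group-only. Of all assigned regions, 7.77% were SISC-only and 8.98% LISC-only. The 8 genes of receptor turnover, Dtx1 among them, had 60 regions. Of these, 5 were of the SISC-only kind (8.33%, near the 7.77% of all assigned regions) and 1 of the LISC-only kind (1.67%, beside 8.98%). The proteases that cleave the receptor, including Adam10 and the presenilins, held 1 SISC-only (2.94%) and 2 LISC-only (5.88%) regions among 34 over 7 genes.

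By window counts of shared, SISC-only and LISC-only regions over the 4 libraries, the gene most like each member was sought among 48 others of the pathway. Jag1 and Hey1 were each other's closest match, with a summed difference of 1. Dll4 was closest to Rfng, also with 1. Hes1 tied between Dll3, Hes5 and Hes6 with 3, and Dll1 between 5 genes with 3. The receptors had the least similar matches, with 5 for Notch1 (a tie of Notch4, Hes2 and Pofut1) and 6 for Notch2 (Dtx3). The measure adds differences in raw counts, and the receptor windows also held the most regions, 36 and 50. Jag1 and Hey1 held the fewest, 16 each, and Dll4 held 34.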

How the data were processed

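Peak lists of 4 ATAC-seq libraries (2 SISC, 2 LISC; groups and replicate numbers from the sample titles) were used. MACS2 2.2.7.1, Bowtie2 2.3.4.1, bedtools, cutadapt 3.4 and Picard are the tools named, with mm10 as build, per the submitters' processing notes. For their order and settings, the Tn5 shift, duplicates and calling threshold, the sources used here give nothing. Per the labels, 50000 cells were lysed and 10 PCR cycles run per library. The authors deposited, per library and peak, a score, a fold enrichment (ratio), −log10 p, −log10 q and a summit position; results here use −log10 q and the summit.

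Peaks overlapping by at least 1 bp were merged, and a library had a region when any of its peaks lay in it. Genes and sequences came from RefSeq tables of GRCm38.p6; gene strand was taken from the promoter table where a gene matched, otherwise either annotated end was used. Nearest genes were taken by edge distance to an end, within 100 kb. The members, the gene lists and the rules were chosen with earlier results of these data known. Named were all 7 members, their group-only and end regions, up to 4 other pathway genes per direction with the most group-only regions, genes named for an incomplete gene end or a role group after their values were seen, and each member's closest match; 1 gene that this rule names is not reported here. No test was made: an exact permutation test of 2 libraries against 2 cannot go below 0.333, and the lists hold calls without reads to fit a count model. Merging was checked against bedtools 2.31.1 and tested on simulated data. Calculations used Python 3.11.15, numpy 2.4.6 and pandas 2.3.3, with figures from matplotlib 3.10.9. Alternatives were stricter and equal-length lists, 50% cover, windows of 250 bp about summits, 50 kb windows, nearest-gene assignment, gene ends within 2500 bp and each library left out.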

Additional observations from a re-analysis of the deposited data

How the results depend on the processing

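The equal list lengths and every alternative for the ranks, the other pathway genes and the differences per gene were chosen after the data were seen. With each list limited to its 41721 strongest peaks, and so fewer regions, the members had 60 regions in all 4 libraries, 10 SISC-only regions, 16 ranked higher in SISC and 11 in LISC, and the other pathway genes 10 SISC-only regions. In 50 kb windows the members' numbers were 75, 6, 24 and 15, and by nearest gene 65, 7, 22 and 14; LISC-only regions (8 and 7) then equalled or outnumbered SISC-only regions. With each library left out in turn, counts ran from 20 to 33 SISC-only, 13 to 18 LISC-only, 54 to 60 ranked higher in SISC and 42 to 47 in LISC, and at the other pathway genes from 27 to 49 SISC-only and 18 to 28 LISC-only; genome-wide SISC-only regions were then 20774 without SISC replicate 1, as a lone library defines its group. SISC-only minus LISC-only regions changed sign at Hes1 (from -1 to 1 among the strongest peaks and to 2 without SISC replicate 1) and at Hey1 (from -1 to 1 without SISC replicate 1); the cause was not tested. Over the libraries left out these differences ran from -3 to 2 at Hes1 and -3 to 1 at Hey1. At equal list lengths, at 50% cover and with summit windows each region count of this section stayed within 1.5 times its value. The difference at Hes1 went to 0 at equal list lengths and to -2 at 50% cover. That at Hey1 went to -2 at 50% cover. With summit windows 6 of 7 genes kept a shared gene-end region, Dll4 being the exception. No paired analysis was possible because no test was made and no label ties equal replicate numbers to an animal or batch. Within replicate 1 the members had 160 regions in SISC and 160 in LISC, and within replicate 2 they had 177 and 155.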
